A study of Mus musculus with 6 samples.

Results

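The genes described here are 34 genes of cholesterol synthesis, fatty acid synthesis and lipid handling, read in splenic NK1.1+ cells of B6 wild-type and TLR7tg mice. They were taken from a list of gene symbols, and each was read through the probe that was brightest over the 6 mice. Of the 34 genes, 29 had a probe with their symbol in the platform annotation, and 23 of these were measured, meaning that the probe lay at or above a detection level of 6.9 on the log2 scale in at least 3 mice. In all, 19057 genes had a probe and 9173 were measured. The measured members were 8 of 11 genes of sterol synthesis, 4 of 4 genes of SREBP control, 2 of 5 of fatty acid synthesis, 5 of 7 of the LXR, efflux and lipoprotein group and 4 of 7 of the uptake, PPAR and storage group. Idi1, Scd2, Fasn, Acaca, Abca1 and Cd36 had a probe that did not reach the level in 3 mice, and their highest value in any mouse was 7.25. Hmgcs1, Fdft1, Nr1h2, Acsl1 and Soat1 matched no probe by symbol and were not analysed here.

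Cells build cholesterol from acetyl-CoA through mevalonate, farnesyl pyrophosphate, squalene and lanosterol. When sterol in the endoplasmic reticulum is low, SCAP carries the SREBP factors to the Golgi, where they are cut and freed to switch on the enzymes of this pathway, and INSIG proteins hold SCAP back when sterol is plentiful. Oxysterols, which accumulate when sterol is plentiful, activate the LXR receptors, whose targets export cholesterol, remodel lipoproteins and degrade lipoprotein receptors. PPAR receptors bind fatty acids and control genes of lipid uptake, storage and oxidation, and in macrophages both receptor families are known for their part in handling lipid from engulfed cells.

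The study compared 3 B6 wild-type mice with 3 TLR7tg mice, a lupus model with a Tlr7 transgene, which encodes a sensor of RNA in endosomes. The sources used here do not give the promoter of the transgene, the age of the mice or how the cells were sorted. NK1.1+ cells are named for both strains in the design text, but for B6 the sample labels say only NK cells. One TLR7tg mouse, replicate 1, has the identifier of a B6 mouse (replicate 1) in its title and a different one in its other labels. Replicate 1 of each group is an average of 2 technical arrays and the others are single arrays. Replicate numbers are names only, and p-values measure the spread between mice.

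The Tlr7 signal averaged 9.13 in B6 (SD 0.57) and 13.80 in TLR7tg (SD 0.71, 3 mice each), so the labels of the groups match the transgene. NK cell markers did not match the cell label in TLR7tg. All 9 measured NK markers were lower there, and Klrb1c, which encodes NK1.1, was 8.96 to 10.02 in B6 and 7.08 to 7.92 in TLR7tg. None of the TLR7tg mice reached the detection level for Ncr1 or Eomes, which were kept only through the B6 mice. Of other lists, 8 of 9 measured neutrophil markers and 6 of 9 measured monocyte and macrophage markers were higher in TLR7tg, as were 3 of 4 erythroid markers. Of the erythroid markers, Klf1 was below the detection level in all B6 mice and was kept only through the TLR7tg mice. In bulk samples, fewer cells of a type and less RNA per cell cannot be told apart, here and for every gene below.

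In TLR7tg mice 5 of the 23 measured members were higher, 0 were lower and 18 did not pass the test (limma, Benjamini-Hochberg adjusted p under 0.05 over all kept probes). The 5 are Pparg, Nr1h3, Lpl, Pltp and Plin2, all of lipid handling, and their differences (TLR7tg minus B6) ran from 1.29 to 2.53 on the log2 scale. The 5 higher members are 21.7% of those measured, beside 7.74% of all measured genes that were higher and 6.97% that were lower. With no adjustment, 8 members had p under 0.05 (limma). The share of all genes at that unadjusted threshold was not counted, so nothing is read from this count. The mice of the groups did not overlap in 8 members (34.8%), 7 of them higher and 1 lower, beside 32.7% of all measured genes. The median difference was 0.15 over the 8 sterol synthesis genes, 0.18 over the 4 SREBP control genes and 1.29 over the 9 genes of the 2 lipid handling groups together, beside -0.06 over all measured genes. Which of these groups moved more than others was not tested.

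**Figure D1:**
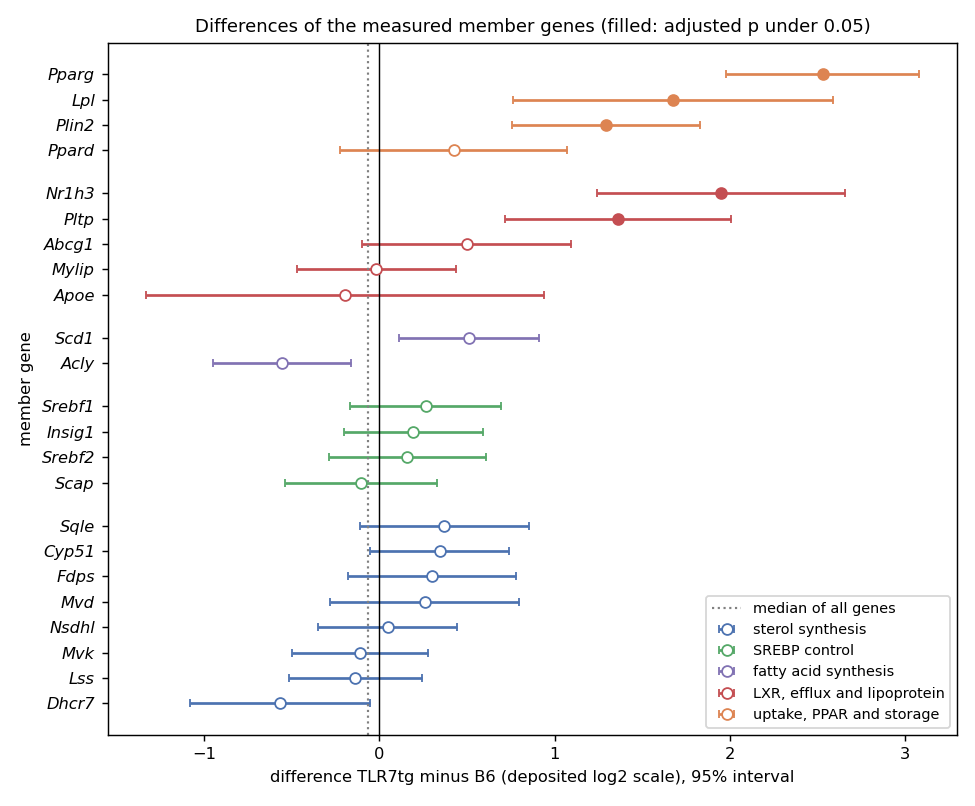
Difference TLR7tg minus B6 for each of the 23 measured members on the log2 scale (points, filled where adjusted p was under 0.05), with 95% confidence intervals from limma (bars), coloured by role, and the median of all genes as a dotted line. Pparg (2.53), Nr1h3 (1.95), Lpl (1.68), Pltp (1.36) and Plin2 (1.29) passed the threshold, and no sterol synthesis, SREBP or fatty acid synthesis gene did.

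Pparg encodes PPAR gamma, a nuclear receptor that controls lipid uptake and storage in adipocytes and macrophages. Its log2 signal was 7.93, 8.55 and 8.85 in the B6 mice and 11.03, 10.84 and 11.06 in the TLR7tg mice. Every TLR7tg mouse lay above every B6 mouse, and the TLR7tg mice lay close together. The means were 8.44 ± 0.47 (SD, n = 3) and 10.97 ± 0.12 (SD, n = 3), a difference of 2.53 (SE 0.24, 95% interval 1.98 to 3.08, limma adjusted p = 0.000419), or 5.77-fold. A dimmer Pparg probe was below the detection level in all 3 B6 mice and at least 2.07-fold higher in TLR7tg. It was kept only through the TLR7tg mice, so it is no separate support for the rise. A further probe was below the level in every mouse.

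Lpl encodes lipoprotein lipase, which frees fatty acids from the triglyceride of lipoproteins. Its signal was 7.57, 9.30 and 9.02 in B6 and 10.07, 10.22 and 10.63 in TLR7tg. The groups did not overlap, but B6 replicate 1 lay well under the other B6 mice. The mean rose from 8.63 ± 0.93 (SD, n = 3) to 10.31 ± 0.29 (SD, n = 3), by 1.68 (SE 0.41, limma adjusted p = 0.0259), or 3.19-fold. That call ended without TLR7tg replicate 2 (adjusted p = 0.0799), without TLR7tg replicate 3 (adjusted p = 0.0777) and with dim probes kept (adjusted p = 0.143). Over all alternatives the adjusted p of Lpl was 0.00259 to 0.143. The difference fell to 1.14 without B6 replicate 1 (adjusted p = 0.0155).

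Plin2 encodes perilipin 2, a coat protein of lipid droplets. Its signal was 7.45, 7.20 and 7.80 in B6 and 9.15, 8.73 and 8.44 in TLR7tg. Each TLR7tg mouse was again above each B6 mouse. The means were 7.48 ± 0.30 (SD, n = 3) and 8.77 ± 0.36 (SD, n = 3), a rise of 1.29 (SE 0.24, limma adjusted p = 0.00762), or 2.45-fold. Ppard, which encodes the related receptor PPAR delta, was 8.98, 9.34 and 9.42 in B6 and 9.02, 10.16 and 9.83 in TLR7tg, with overlapping groups (difference 0.43, SE 0.29, limma adjusted p = 0.426). Cd36, a scavenger receptor and fatty acid translocase, was below the detection level in all mice, between 6.45 and 6.59, so uptake through it could not be compared.

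Nr1h3 encodes LXR alpha, the LXR receptor that is abundant in macrophages and liver. Its signal was 7.86, 8.46 and 8.62 in B6 and 9.98, 9.87 and 10.93 in TLR7tg. All 3 TLR7tg mice were above all B6 mice. The means were 8.31 ± 0.40 (SD, n = 3) and 10.26 ± 0.59 (SD, n = 3), a rise of 1.95 (SE 0.31, limma adjusted p = 0.00397), or 3.86-fold. A dimmer kept probe of Nr1h3 differed in the same direction, by 0.48, and did not pass (adjusted p = 0.179). Over the mean of both probes the difference was 1.21 (adjusted p = 0.0107).

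Pltp, the phospholipid transfer protein that moves lipid between lipoproteins, is a known LXR target. Its signal was 7.02, 6.66 and 6.99 in B6 and 8.86, 8.24 and 7.67 in TLR7tg. Only 2 of the B6 mice were above the detection level, and all TLR7tg mice were. The means were 6.89 ± 0.20 (SD, n = 3) and 8.25 ± 0.59 (SD, n = 3), a rise of 1.36 (SE 0.29, limma adjusted p = 0.0142), or 2.57-fold. The call of Pltp ended without B6 replicate 2 (adjusted p = 0.0697), without TLR7tg replicate 2 (adjusted p = 0.0529) and with dim probes kept (adjusted p = 0.0723). Where detection in all 6 mice was required Pltp was not tested, and over the other alternatives its adjusted p was 0.00301 to 0.0723. Its difference was 2.17 with normexp background correction.

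The other 3 measured members of the LXR, efflux and lipoprotein group, Abcg1, Mylip and Apoe, did not pass. Abcg1, a cholesterol export pump, was 8.56, 8.05 and 7.80 in B6 and 9.09, 8.32 and 8.50 in TLR7tg, with overlapping groups (difference 0.50, SE 0.26, limma adjusted p = 0.293). With neighbouring mouse identifiers as a block Abcg1 passed (limma adjusted p = 0.0496). Abcg1 also passed with the replicate 1 mice, whose arrays the labels name, as a block (limma adjusted p = 0.0447). No label gives the identifier pairing. The genes called higher over all 9173 rose from 710 to 1118 with the identifier block and to 1022 with the other. Mylip, the ubiquitin ligase that degrades lipoprotein receptors, was 6.88 to 7.48 in B6 and 7.003 to 7.31 in TLR7tg, a difference of -0.02 (adjusted p = 0.979). Abca1, the exporter that loads cholesterol onto apolipoproteins, was below the detection level in every mouse (6.53 to 6.68). Apoe, the apolipoprotein of macrophages and liver, varied more within the groups than between them, at 8.25, 9.31 and 9.67 in B6 and 9.95, 8.71 and 7.98 in TLR7tg. The SD of Apoe was 0.74 in B6 and 0.997 in TLR7tg, and its difference of -0.20 (SE 0.50, limma adjusted p = 0.880) was 1.70 between the mice named replicate 1 and -1.15 among the other 4.

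**Figure D2:**
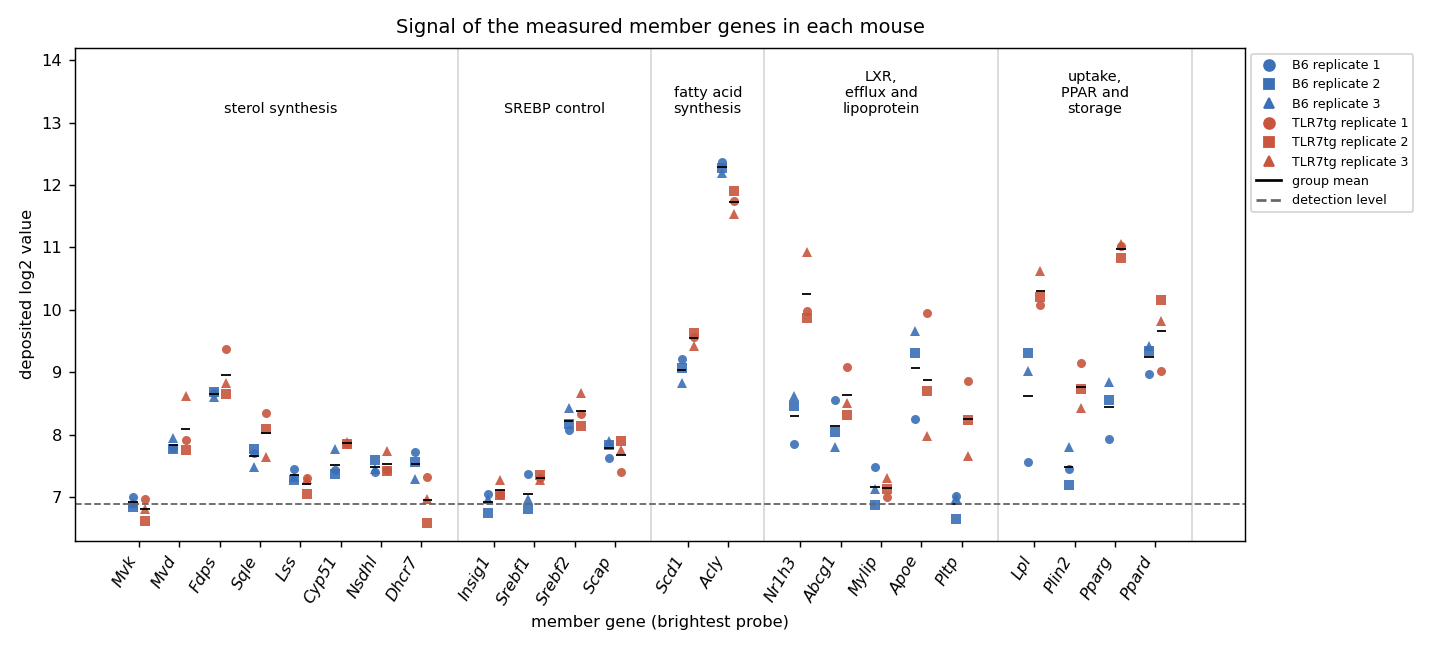
Log2 signal of each of the 23 measured members in each of the 6 mice, with colour for the group, a marker shape for the replicate and a short black line at the group mean, grouped by role. The dashed line is the detection level of 6.9. The Pparg, Nr1h3, Lpl, Pltp and Plin2 points of the TLR7tg mice lie above all B6 points, the Apoe points mix, and Acly is the one member with all TLR7tg points below all B6 points.

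The starts of genes that rose are shown beside 2 sterol synthesis genes that did not pass, because the groups are known for control by different factors. RefSeq (GRCm38.p6) windows of 300 bases around annotated gene starts were held for 27 of the 34 members. Of the genes that rose, Lpl had none. Capitals mark CCAAT, or ATTGG on the other strand, the core of the NF-Y site that often lies beside SREBP sites. Of 2 overlapping windows of Nr1h3, both without a match and both inside the annotated gene, chr2:91195067-91195366 on the minus strand is shown. That of Pltp is chr2:164857659-164857958 on the minus strand, with 1 match, and that of Plin2 is chr4:86670010-86670309 on the minus strand, also with 1. Of 3 windows of Pparg, that with most matches is shown, chr6:115421816-115422115 on the plus strand, with 2. This Pparg window also lies inside the annotated gene. The Mvk window is chr5:114444019-114444318 on the plus strand, with 5 matches, and the Cyp51 window is chr5:4104648-4104947 on the minus strand, with 1.
Nr1h3: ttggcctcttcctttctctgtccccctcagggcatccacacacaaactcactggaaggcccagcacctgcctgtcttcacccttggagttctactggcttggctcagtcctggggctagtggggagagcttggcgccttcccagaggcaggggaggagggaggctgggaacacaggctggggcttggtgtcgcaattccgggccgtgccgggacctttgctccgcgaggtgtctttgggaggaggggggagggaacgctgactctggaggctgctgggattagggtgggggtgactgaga
Pltp: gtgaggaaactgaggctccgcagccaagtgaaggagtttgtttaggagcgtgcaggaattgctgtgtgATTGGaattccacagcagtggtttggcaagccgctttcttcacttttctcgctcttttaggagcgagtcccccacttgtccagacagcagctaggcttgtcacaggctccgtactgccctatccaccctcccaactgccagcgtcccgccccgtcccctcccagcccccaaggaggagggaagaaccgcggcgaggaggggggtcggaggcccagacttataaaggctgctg
Plin2: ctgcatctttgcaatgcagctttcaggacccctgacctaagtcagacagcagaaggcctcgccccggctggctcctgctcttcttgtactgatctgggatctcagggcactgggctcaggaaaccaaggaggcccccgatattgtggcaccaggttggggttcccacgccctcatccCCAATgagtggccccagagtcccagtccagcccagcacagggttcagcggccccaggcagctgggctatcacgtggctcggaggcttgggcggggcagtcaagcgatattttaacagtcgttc
Pparg: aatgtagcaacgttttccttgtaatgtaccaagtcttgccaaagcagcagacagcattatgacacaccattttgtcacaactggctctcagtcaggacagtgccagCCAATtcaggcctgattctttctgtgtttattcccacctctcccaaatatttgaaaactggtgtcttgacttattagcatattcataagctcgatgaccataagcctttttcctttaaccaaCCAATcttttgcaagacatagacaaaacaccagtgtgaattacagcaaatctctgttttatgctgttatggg
Mvk: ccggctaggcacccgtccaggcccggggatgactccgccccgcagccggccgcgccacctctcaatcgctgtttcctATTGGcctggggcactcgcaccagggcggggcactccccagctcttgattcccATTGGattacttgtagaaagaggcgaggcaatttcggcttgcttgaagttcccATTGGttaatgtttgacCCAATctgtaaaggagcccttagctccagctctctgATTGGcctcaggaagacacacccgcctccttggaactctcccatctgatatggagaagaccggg
Cyp51: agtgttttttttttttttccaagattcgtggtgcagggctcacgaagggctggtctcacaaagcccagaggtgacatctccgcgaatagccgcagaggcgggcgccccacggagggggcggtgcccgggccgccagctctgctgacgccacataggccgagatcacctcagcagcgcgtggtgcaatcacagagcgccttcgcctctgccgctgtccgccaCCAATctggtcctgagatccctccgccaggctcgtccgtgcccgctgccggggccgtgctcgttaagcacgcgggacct

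CCAAT was in a window of 8 of 8 sterol synthesis genes, 3 of 4 SREBP control genes, 2 of 3 fatty acid synthesis genes, 2 of 6 genes of the LXR group and 6 of 6 of the uptake group, beside 41.1% of all genes and 37.4% of all windows. Genes with several windows have more chances to hold it. The sterol element TCACNCCAC was in 1.24% of windows and in 2 members, Hmgcs1 and Acsl1, which have no probe here. An LXR element, AGGTCA repeated with 4 bases between, was in 0.0152% of windows and in no member. Both strands were searched, no matches in members overlapped, and a match is a description of letters, not a site.

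None of the measured sterol synthesis genes passed the test. Of the 8, 5 had a positive and 3 a negative difference, from -0.57 to 0.37, and their adjusted p-values ran from 0.155 to 0.923 (limma). The lowest bound of their 95% intervals was -1.08, for Dhcr7, and the highest was 0.85, for Sqle, so that the intervals allow a fall of up to 2.12-fold in Dhcr7 and a rise of up to 1.81-fold in Sqle. The median of 0.15 was 0.08 between the mice named replicate 1 and 0.08 among the other 4.

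Among the early steps, Mvk, mevalonate kinase, was 7.003, 6.85 and 6.90 in B6 and 6.98, 6.62 and 6.82 in TLR7tg, near the detection level in both groups (difference -0.11, limma adjusted p = 0.778). Mvd, the decarboxylase that makes isopentenyl pyrophosphate, was 7.76 to 7.96 in all mice except TLR7tg replicate 3, which reached 8.62 (difference 0.26, adjusted p = 0.593). Fdps, farnesyl pyrophosphate synthase, was 8.68, 8.69 and 8.60 in B6 and 9.37, 8.66 and 8.83 in TLR7tg. TLR7tg replicates 1 and 3 lay above all B6 mice and replicate 2 among them (difference 0.30, adjusted p = 0.450).

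Sqle, squalene epoxidase, was 7.71, 7.77 and 7.49 in B6 and 8.34, 8.10 and 7.65 in TLR7tg. TLR7tg replicates 1 and 2 lay above all B6 mice and replicate 3 among them (difference 0.37, SE 0.21, limma adjusted p = 0.337). Cyp51, lanosterol demethylase, was 7.43, 7.37 and 7.77 in B6 and 7.86, 7.86 and 7.88 in TLR7tg. It was the one sterol synthesis gene whose groups did not overlap, and it did not pass (difference 0.34, 95% interval -0.05 to 0.74, adjusted p = 0.272). Lss, lanosterol synthase (-0.14), and Nsdhl, a sterol dehydrogenase (0.05), had overlapping groups.

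Dhcr7, the reductase of the last step to cholesterol, went the other way. It was 7.73, 7.56 and 7.29 in B6 and 7.33, 6.58 and 6.97 in TLR7tg, so that TLR7tg replicate 1 lay just above B6 replicate 3. The difference of -0.57 (SE 0.23, 95% interval -1.08 to -0.05, limma adjusted p = 0.155) had an unadjusted p under 0.05 and did not pass after adjustment. Dhcr7 passed with neighbouring mouse identifiers as a block (limma adjusted p = 0.0494). It also passed with the replicate 1 mice, whose arrays the labels name, as a block (limma adjusted p = 0.0446). No label gives the identifier pairing. The genes called lower over all 9173 rose from 639 to 1166 with the identifier block and to 1083 with the other.

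The SREBP control genes did not pass either, with adjusted p-values of 0.464 to 0.817 (limma). Srebf2, which encodes SREBP2, the main factor of sterol synthesis, was 8.08, 8.17 and 8.43 in B6 and 8.33, 8.15 and 8.67 in TLR7tg, with overlapping groups (difference 0.16). Srebf1, which encodes SREBP1 and is itself an LXR target in liver, was 7.37, 6.81 and 6.97 in B6 and 7.31, 7.35 and 7.28 in TLR7tg. B6 replicate 1 was the highest of all 6 and the other B6 mice the lowest (difference 0.26). Insig1, the sterol-sensing anchor of SCAP and an SREBP target, was 6.75 to 7.05 in B6 and 7.04 to 7.28 in TLR7tg (difference 0.19), and Scap was 7.63 to 7.90 and 7.40 to 7.90 (difference -0.11). Messenger levels do not show how much SREBP is cut.

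In fatty acid synthesis, Acly and Scd1 differed in opposite directions with groups that did not overlap. Neither passed in the fit without a block. Both did once mice of neighbouring identifiers were blocked, Acly with an adjusted p of 0.0278 and Scd1 with one of 0.0354 (limma). Both also passed with the replicate 1 mice, whose arrays the labels name, as a block (limma adjusted p = 0.0348 and 0.0454). The labels do not give the identifier pairing, and calls over all genes rose with either block in both directions. Acly, ATP citrate lyase, which supplies cytosolic acetyl-CoA, was 12.38, 12.28 and 12.20 in B6 and 11.74, 11.90 and 11.54 in TLR7tg. Each TLR7tg mouse lay below each B6 mouse (difference -0.56, SE 0.17, 95% interval -0.95 to -0.16, limma adjusted p = 0.0706). Scd1, the stearoyl-CoA desaturase that makes monounsaturated fatty acids and is a target of SREBP1 and LXR, was 9.21, 9.06 and 8.82 in B6 and 9.57, 9.64 and 9.42 in TLR7tg. Each TLR7tg mouse lay above each B6 mouse (difference 0.51, SE 0.18, 95% interval 0.11 to 0.91, adjusted p = 0.0990). Fasn, fatty acid synthase, and Acaca, acetyl-CoA carboxylase, were below the detection level in every mouse, and Scd2 reached it in 1 mouse of each group.

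Wider lists of the same pathways, which hold no member, gave 9 higher (13.8%) and 5 lower genes (7.69%) among 65 measured, beside 7.74% and 6.97% of all measured genes. The share of lower genes is near that of all genes. Of the 9 higher genes, 2 were below the detection level in all B6 mice, Cyp7b1, an oxysterol hydroxylase (at least 1.38-fold higher), and Lrp1, a lipoprotein receptor (at least 1.42-fold higher). They are named because their size is only a bound, after their values were seen. Both were kept only through the TLR7tg mice, so the 13.8% is in part set by the filter and nothing is read from it. Of 12 other genes of sterol synthesis and SREBP control, 0 passed, with a median difference of -0.24. Of 11 other genes of fatty acid synthesis, 2 were lower. Acss2, which makes acetyl-CoA from acetate and is an SREBP target, was 10.51, 11.38 and 11.43 in B6 and 9.07, 9.83 and 9.59 in TLR7tg, a fall without overlap (difference -1.61, SE 0.29, limma adjusted p = 0.00721). Elovl6, a fatty acid elongase, was 8.83, 8.71 and 8.60 in B6 and 7.19, 7.33 and 7.22 in TLR7tg, also without overlap (difference -1.47, SE 0.16, adjusted p = 0.000758).

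Among the wider LXR and oxysterol genes, 4 of 9 measured were higher and 0 lower, with a median of 0.65. The 4 include Cyp7b1, which was kept only through the TLR7tg mice and whose own difference is that median. Nothing is therefore read from this count or median. The 2 largest rises were those of Apoc2, the apolipoprotein that activates lipoprotein lipase (difference 2.22, limma adjusted p = 0.0178), and Hsd3b7, an enzyme of oxysterol and bile acid metabolism (1.66, adjusted p = 0.00687). Apoc2 was 7.39, 8.03 and 8.60 in B6 and 11.44, 9.59 and 9.64 in TLR7tg, with TLR7tg replicate 1 far above the rest. Of 8 measured genes of lipid uptake and the lysosome, 3 were higher and 0 lower, with a median of 0.76. The 3 include Lrp1, also kept only through the TLR7tg mice, so nothing is read from this count or median either. Lipa, the lysosomal acid lipase that frees cholesterol from its esters, rose by 1.30 (adjusted p = 0.00243) and Scarb1, the HDL receptor, which was above the detection level in 1 of 3 B6 mice and in all TLR7tg mice, by 1.09 (adjusted p = 0.00603).

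Of 12 measured genes of the lipid droplet, 1 was higher and 2 were lower, beside 7.74% and 6.97% of all measured genes. Nothing is read from these counts about the list. Dgat2, which makes triglyceride from diglyceride, was 6.98, 7.03 and 7.36 in B6 and 8.56, 8.44 and 8.24 in TLR7tg, a rise without overlap (difference 1.29, limma adjusted p = 0.00230). Lpin1, the phosphatidate phosphatase one step earlier, was 9.52, 9.42 and 9.36 in B6 and 7.54, 7.23 and 7.62 in TLR7tg, a fall without overlap (difference -1.97, adjusted p = 0.000334). Hilpda, a droplet protein that inhibits triglyceride breakdown, fell by 0.85 (adjusted p = 0.0326). Of 13 measured genes of fatty acid oxidation, Acaa2, a mitochondrial thiolase, was higher (0.70, adjusted p = 0.0319) and Angptl4, a secreted inhibitor of lipoprotein lipase and PPAR target, was lower (-0.67, adjusted p = 0.0399). With 1 higher and 1 lower, nothing is read about this list either.

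**Figure D3:**
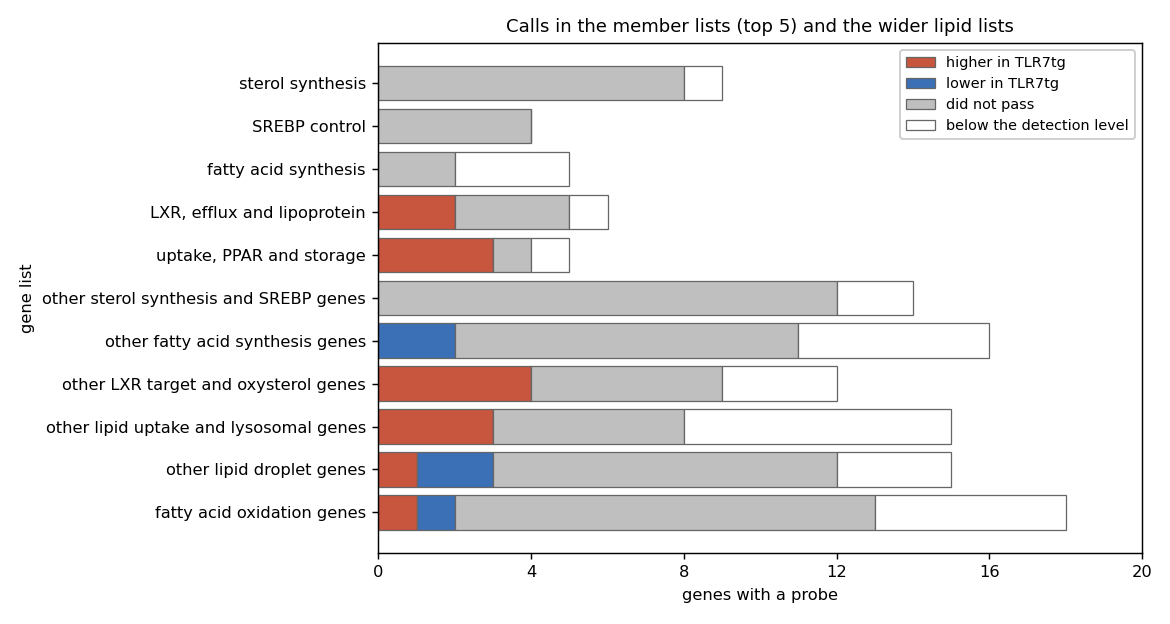
Number of genes with a probe in each member list (upper 5 bars) and each wider list (lower bars), split into higher in TLR7tg, lower in TLR7tg, not past the threshold and not measured (drawn as below the detection level). Of the measured genes, 0 of 8 sterol synthesis and 0 of 12 other sterol and SREBP genes passed. Higher were 2 of 5 genes of the LXR group and 3 of 4 of the uptake group. Of all measured genes 7.74% were higher and 6.97% lower, and differences between the lists were not tested.

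Some marker lists of other cell types differed between the groups and others did not. The log2 of the summed signal of the monocyte and macrophage markers was 12.99, 13.91 and 14.31 in the B6 mice and 15.78 to 15.82 in the TLR7tg mice, and that of the neutrophil markers 10.24 to 10.93 and 12.46 to 16.40. B6 replicate 1, the lowest for the monocyte and macrophage list, was also the lowest of the 6 mice for Pparg, Nr1h3 and Lpl, while for Pltp and Plin2 the lowest was B6 replicate 2. B6 replicate 1 was the lowest of the 6 mice for the red pulp macrophage list (12.71) and the erythroid list (10.90) as well. The match is therefore not particular to the monocyte and macrophage list. TLR7tg replicate 3, the lowest TLR7tg mouse for the neutrophil list, was also the lowest of that group for Pltp and Plin2, and the highest for Pparg, Nr1h3 and Lpl. The NK list was 15.80 to 15.90 in B6 and 11.13 to 12.93 in TLR7tg. The red pulp macrophage list overlapped (12.71 to 14.00 and 12.98 to 14.22), with 1 of 9 measured markers higher and 3 lower, and 0 of 4 measured conventional dendritic cell markers passed. The erythroid list was 10.90 to 12.09 in B6 and 13.23 to 14.97 in TLR7tg. The plasma cell list was 11.37 to 11.85 in B6 and 12.39 to 13.38 in TLR7tg, with 1 of 3 measured markers higher. Of 3 measured T cell markers 2 were lower, and of 3 measured platelet markers 1 was higher and 1 lower. The higher platelet marker, Ppbp, was kept only through the TLR7tg mice, and the lower one, Gp1bb, only through the B6 mice. Of the B cell (3 measured), plasmacytoid dendritic cell (5 measured) and cycling markers (4 measured), 0 passed. The part of these markers in the rise of Pparg, Nr1h3, Lpl, Pltp and Plin2 was not tested.

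**Figure D4:**
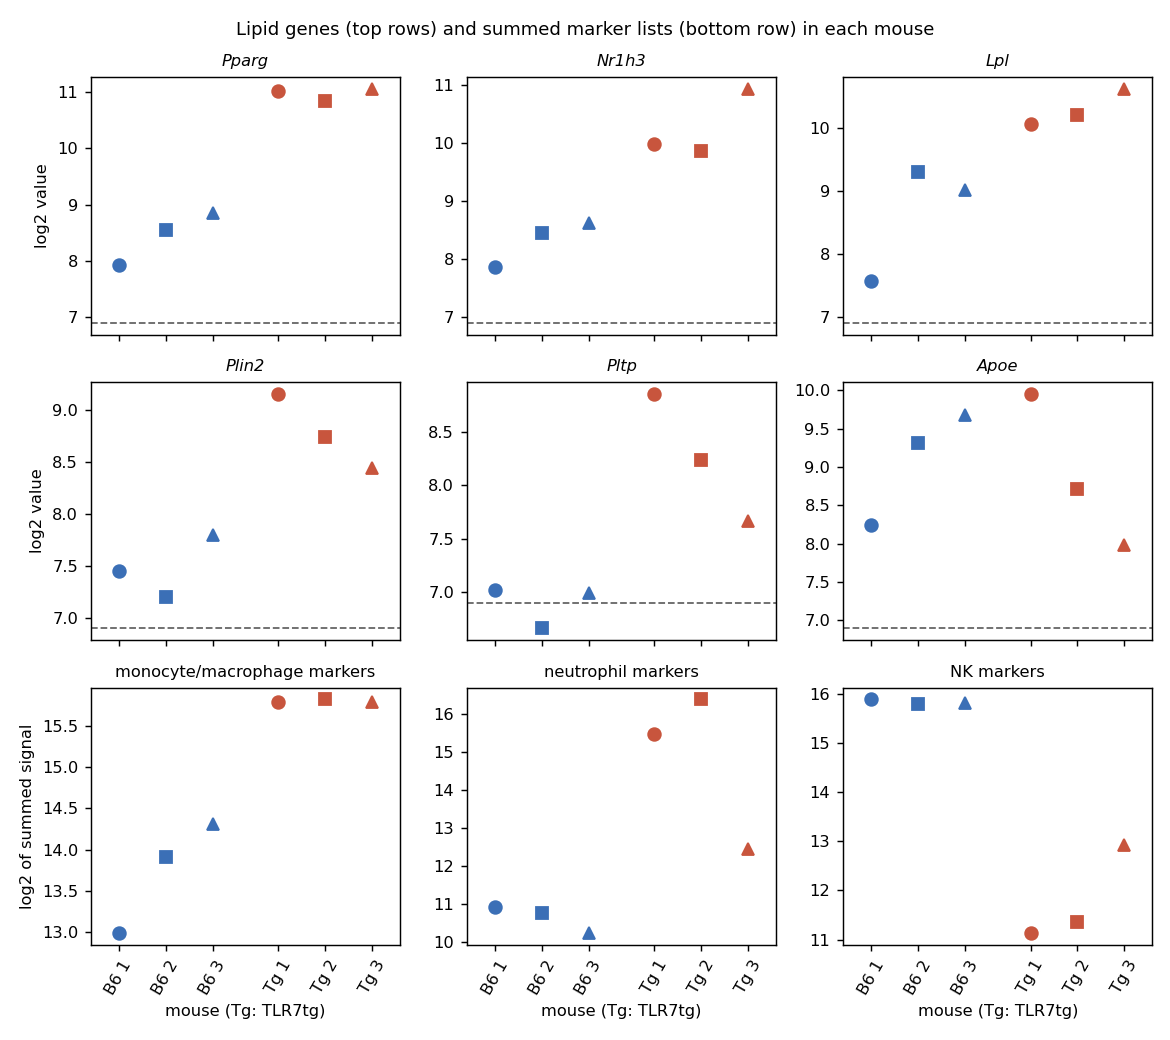
Log2 signal of the 5 members that rose and of Apoe in each mouse (upper panels, dashed line at the detection level) and log2 of the summed signal of 3 marker lists in the same mice (lower panels), with colour for the group and a marker shape for the replicate. The monocyte and macrophage sum is 12.99 to 14.31 in B6 and 15.78 to 15.82 in TLR7tg, and B6 replicate 1 is lowest there and for Pparg, Nr1h3 and Lpl, while B6 replicate 2 is lowest for Pltp and Plin2.

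The mice named replicate 1 are the ones whose scanner arrays the labels name, and the 5 rises were present between them and among the other 4 mice. The difference between the named mice was 3.10 for Pparg, 2.12 for Nr1h3, 2.51 for Lpl, 1.83 for Pltp and 1.70 for Plin2. Among the other 4 mice it was 2.24 for Pparg, 1.86 for Nr1h3, 1.26 for Lpl, 1.13 for Pltp and 1.09 for Plin2. With 1 mouse a group in the first and 2 in the second, these values carry no test. The calls of Pparg, Nr1h3 and Plin2 held in all alternatives that were run, with adjusted p-values of 0.000132 to 0.00532, 0.000422 to 0.0347 and 0.00344 to 0.0421 (limma).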

How the data were processed

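The authors deposited normalised log2 values for 45281 probes in 6 mice, per the file headers, and the sources used here do not name the tool. Their sorted columns differ by at most 0.00708, as quantile normalisation would leave them. The deposited scanner table holds linear probe intensity and detection p-values per array, per the file headers. The labels assign its arrays only for replicate 1 of each group, where the deposited log2 values ranked as the scanner signals did (Spearman 1.00 in each) with slopes of 0.706 and 0.601, so fold values hold on the deposited scale and the scale of the other 4 mice is assumed to be the same. The other 8 columns of the scanner table were not used. Without background subtraction, differences of dim genes tend to be understated.

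From these values the detection level was set at 6.9, where at least 95% of probes in bins of 0.1 were detected (mean p-value over a mouse's arrays under 0.05) in each mouse with named arrays, and the 16535 probes at or above it in at least 3 mice were kept. The typical SD (median over kept probes) was 0.211 among B6 and 0.258 among TLR7tg mice, and 3 mice a group limit the precision. Symbols came from the platform annotation, which gave 1 symbol for 34885 probes and none or several for 2609 of those kept, and the RefSeq table changed 0 symbols. Groups were compared with limma 3.58.1 in R 4.3.3 (lmFit, eBayes), checked on simulated data, with p-values adjusted by Benjamini-Hochberg over all probes kept. Levels of different probes were not set against each other. All members are named. From each wider list the rule names the 2 largest rises and 2 largest falls past the threshold. The members and lists were chosen with earlier results of these data known.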

Additional observations from a re-analysis of the deposited data

How the results depend on the processing

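The calls of Pparg, Nr1h3 and Plin2 held under every alternative run, and a trended and robust fit and centring on the median of kept probes changed no member's call. Leaving out each mouse in turn gave 3 to 5 higher members (3 without TLR7tg replicate 2). Over all 9173 genes 421 to 756 were then higher (510 without TLR7tg replicate 2), against 710 with all mice. The median was 1.06 to 1.46 over the lipid handling genes and -0.031 to 0.22 over the sterol synthesis genes, so the sign of the latter rests on TLR7tg replicate 3. Leaving out a mouse turned the sign of Mylip (-0.16 to 0.14), Apoe (-0.73 to 0.25), Scap (-0.21 to 0.036), Mvd (-0.0022 to 0.43) and Nsdhl (-0.060 to 0.11), none of which passed. Without a filter on dim probes 3 of 29 members were higher, beside 459 of 19057 genes, and the lipid handling median was 0.50, now over 11 genes. With detection in all 6 mice Pltp was not tested and 4 of 17 members were higher, beside 502 of 6926 genes. With that setting, or the level raised by 0.5, the sterol synthesis median was 0.28 (6 genes) and 0.30 (5 genes). Normexp with an offset of 16 gave a lipid handling median of 1.73. Array weights and the mean of a gene's kept probes gave 1 lower member each, Acly, while over all 9173 genes 793 and 710 were lower, against 639. Array weights turned Mylip to 0.14. With the mice of the named arrays as a block, or neighbouring mouse identifiers as a block, 7 members were higher and 2 lower, while over all 9173 genes 1022 and 1118 were higher and 1083 and 1166 lower, against 710 and 639 without a block. The gains were Scd1 (adjusted p = 0.0454 and 0.0354, limma), Abcg1 (0.0447 and 0.0496), Acly (0.0348 and 0.0278) and Dhcr7 (0.0446 and 0.0494). The labels give the groups no shared replicate numbers. The deviations of mice of neighbouring identifiers had correlations of 0.63, 0.12 and 0.45 across genes. Other pairings of the mice were not compared, so these correlations cannot single out this one, and the design does not give it. The cause of these changes was not tested.

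Genes near the detection level can have understated differences, and genes below that level could not be compared. With normexp background correction the differences of Mvk (-0.28), Insig1 (0.40) and Pltp (2.17) were larger, while that of Mylip was not (-0.0081). With 3 mice a group, a member that did not pass is not shown to be equal: the intervals of the sterol synthesis genes still allow a rise of up to 1.81-fold and a fall of up to 2.12-fold.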
